A study of Bos taurus with 12 samples.

Results

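The genes of the circadian clock were followed in mammary gland biopsies of Holstein dairy cows before and during a feed restriction. Members were the 10 genes ARNTL (also written BMAL1), CLOCK, PER1, PER2, PER3, CRY1, CRY2, NR1D1, NR1D2 and DBP, chosen by name. Probes were assigned to them through the RefSeq transcript that the array files give for each probe. Of the 12787 genes with a probe, 9 were members, measured by 21 probes, and PER3 had none. A probe was tested when the scanner software called it well above background on every array of at least 1 group. By that criterion 11 probes of 7 members were tested, and the other 10 probes, among them every probe of CRY2 and NR1D1, were too dim.

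The study compared the same animals in 2 periods. CONT was the control period, in which the cows ate a lactation diet ad libitum and were biopsied on day 0. REST was the restriction period, in which the feed allowance met 50% of the net energy requirement for lactation, with the biopsy on day 6. All cows were multiparous Holstein cows in midlactation; no genotype or other agent differed between periods, and period and time order coincided in every cow. Per the methods of the study, the 2 biopsies of a cow alternated between the left and right rear glands of the udder. Whole tissue was used, so in every result below fewer cells of a type and less RNA per cell cannot be told apart. The hour of the biopsies was not given in the sources used here, so hour and period cannot be told apart, and with 1 biopsy per cow and period no rhythm was measured.

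In mammals, the clock is a feedback loop of transcription that runs in most tissues. ARNTL and CLOCK form the activator that switches on the PER and CRY genes, whose proteins return to the nucleus and repress that activator. A connected loop acts on the ARNTL promoter, where the ROR receptors activate and the REV-ERB receptors (NR1D1 and NR1D2) repress. DBP is an output transcription factor driven directly by the activator. In the mammary gland, clock gene expression is known to change with the stage of lactation, and clocks of peripheral tissues are known to be shifted by feeding.

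RNA was hybridised on 12 one-colour arrays, 6 per group, printed 4 to a slide, with both samples of 2 cows on each of 3 slides. Cows 1 and 2 were on slide 1, cows 3 and 4 on slide 2, and cows 5 and 6 on slide 3. The labels name 6 cows whereas the series description counts 5. The methods also mention a Holstein cow left out because of mastitis, and whether its samples are among those labelled here is not given in the sources used here. The calls below rest on all labelled cows. Values are log2 signals relative to the 75th percentile of the array. This percentile was between 73.2 and 117 intensity units on slide 3, below the 252 to 390.0 on the others. On slide 3, 41.9 to 48.0% of spots were well above background, against 61.8 to 67.9% elsewhere. REST was the brighter array in 6 of 6 cows, by 0.17 to 0.45 log2 units of that percentile.

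With the cow as a block, 3 of the 7 members with a tested probe differed between periods: ARNTL and PER2 rose and CLOCK fell in REST, each by about 0.5 log2 units. CRY1, DBP, NR1D2 and PER1 did not pass the test. The criterion was a limma adjusted p (Benjamini-Hochberg over 19403 tested probes) below 0.1. It was met by 16.0% of all tested probes, 7.22% higher and 8.78% lower in REST, and by 20.5% of tested genes through any probe (16.4% of genes with a single tested probe, as ARNTL, CLOCK and PER2 had). Among members, 3 of 11 tested probes met it (27.3%). The 3 adjusted p-values lay between 0.0916 and 0.0981, close to the threshold, as did those of 8.73% of all called probes (0.09 to 0.1). No member probe had groups that did not overlap (0 of 11), where 2.25% of all tested probes did. The median change of the 7 tested members was -0.19 and the median absolute change 0.28, against -0.01 and 0.15 over all 7930 tested genes. These medians leave out 3 members, and ARNTL and CLOCK entered the test through the REST arrays only.

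ARNTL, the partner of CLOCK in the activator, was measured by a single probe (A_73_P075286, transcript NM_001191170). In CONT its normalized signal ranged from -3.78 to -1.61 with a median of -2.63, and in REST from -2.54 to -1.42 with a median of -2.26. The lowest CONT sample, cow 1, was far below all REST samples, and the highest, cow 5, was above all but 1 of them, so the groups overlapped widely. ARNTL rose by 0.53 in REST (SE 0.17, 95% interval 0.14 to 0.92, n = 6 cows, limma adjusted p = 0.0930), or 1.44-fold. The change was positive in 5 of 6 cows (45.9% of all tested probes changed 1 way in 5 or 6), with 0.17 in cow 3 and 1.25 in cow 1, and was -0.24 in cow 5. The CONT array of cow 6 was not well above background for this probe. The call depended on the block (adjusted p = 0.401 without it), and under normexp background correction the change was 0.13 (adjusted p = 0.356).

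CLOCK, the second subunit of the activator, went the opposite way to ARNTL. Its tested probe (A_73_105625, transcript NM_001289769) ranged from -2.47 to -1.70 in CONT (median -1.94) and from -2.77 to -2.24 in REST (median -2.52). In CONT, 5 samples lay above all 6 REST samples, and cow 5 alone was low. CLOCK fell by 0.51 (SE 0.17, 95% interval -0.88 to -0.13, n = 6 cows, limma adjusted p = 0.0916), a level 1.42-fold higher in CONT. The change was negative in 5 of 6 cows, down to -1.07 in cow 4, and 0.16 in cow 5, whose CONT array was not well above background. A further CLOCK probe was well above background on 0 CONT and 2 REST arrays. Its mean change was -0.36 ± 1.06 (SD, n = 6), with 4 cows lower and 2 higher, and over the 6 cows its changes correlated with those of the tested probe at r = -0.59. CLOCK was the only member also called without the block (adjusted p = 0.0980), where 4.31% of all tested probes were.

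NPAS2 and ARNTL2, which can stand in for CLOCK and ARNTL, had probes but none bright enough to be tested.

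**Figure D1:**
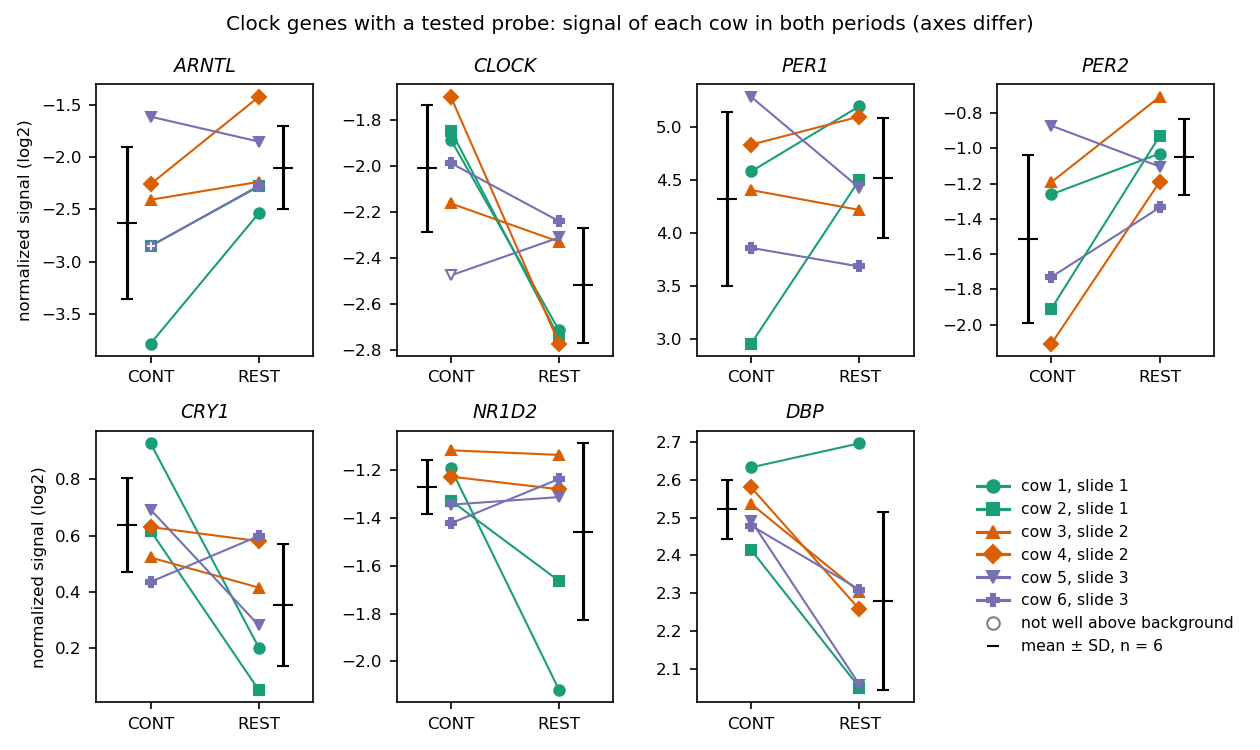
Normalized log2 signal (vertical axes, which differ between panels) of the probe of highest signal for each of the 7 clock genes tested, in CONT and REST. Lines join the samples of a cow, colours mark slides, open symbols were not well above background and bars show mean ± SD of 6 cows. ARNTL and PER2 were higher in REST in 5 of 6 cows and CLOCK was lower in 5 of 6, with cow 5 the exception each time.

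PER2, which with the CRY proteins represses the activator, rose. Its tested probe (A_73_P407741, transcript NM_001192317) was well above background on all 12 arrays. It ranged from -2.11 to -0.87 in CONT (median -1.50) and from -1.34 to -0.71 in REST (median -1.07). The REST samples were closer together than the CONT samples (SD 0.22 against 0.48) and lay within or above the CONT range. PER2 rose by 0.46 (SE 0.15, 95% interval 0.11 to 0.81, n = 6 cows, limma adjusted p = 0.0981), or 1.38-fold, with 5 of 6 cows higher and cow 5 at -0.23. The call was lost without the block (adjusted p = 0.248), and under normexp the change was 0.27 (adjusted p = 0.110). The other 2 PER2 probes were above background on no array, and their mean changes were 0.51 and -0.31.

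PER1, the paralogue of PER2 and a gene that responds quickly to glucocorticoids and other signals, did not pass the test. Its probe of highest signal (A_73_109217, transcript NM_001289772) ranged from 2.96 to 5.28 in CONT (median 4.49) and from 3.69 to 5.20 in REST (median 4.46). Both medians were alike while single cows moved far in either direction. The mean change was 0.20 (SE 0.26, 95% interval -0.39 to 0.79, limma adjusted p = 0.655), with cow 2 at 1.54, cow 5 at -0.86, and 3 cows on each side of 0. Without cow 2 it was -0.068. The other 2 tested probes of PER1 gave mean changes of 0.21 and 0.28.

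The PER1 probes gave a measure of how repeatable a within-cow change was. Between 4 of the 5 probes, the 6 changes correlated with r from 0.881 to 0.999. The fifth, A_73_P347211, correlated with the others at -0.26 to 0.004 and had a mean change of -0.10. The probes measure the same RNA extracts, so this agreement describes the arrays and not the animals. The wide range of PER1 was thus seen by 4 probes and differed from cow to cow.

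The changes of PER1 and PER2 were compared directly, as the only paralogues both tested. The change of PER1 minus that of PER2 was -0.26 ± 0.57 (SD, n = 6 cows), from -0.67 to 0.56. The exact two-sided sign-flip test gave p = 0.25, where 0.03125 is the smallest p that 6 cows allow, so no difference between the paralogues was shown.

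CRY1, the partner of the PER proteins in repression, had 2 tested probes. That of highest signal (A_73_120289, transcript NM_001105415) ranged from 0.44 to 0.93 in CONT (median 0.62) and from 0.05 to 0.60 in REST (median 0.35). REST samples reached lower, and cow 6 was the exception with a change of 0.16. The mean change was -0.28 (SE 0.12, 95% interval -0.57 to 0.0001, 5 of 6 cows lower, limma adjusted p = 0.182). The second probe gave -0.36 (SE 0.19, 4 of 6 cows lower, limma adjusted p = 0.244), the same sign, without passing. CRY2, the second cryptochrome, had 1 probe, above background on 3 arrays of each group. Its signals ranged from -4.49 to -2.16 in CONT and from -4.75 to -3.27 in REST, with a mean change of -0.51 ± 0.98 (SD, n = 6) that was not tested.

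NR1D2, the REV-ERB beta receptor, had 1 tested probe (A_73_P144816, transcript NM_001289793). In CONT its signal was narrow, from -1.42 to -1.12 (median -1.28), and in REST it ranged from -2.12 to -1.14 (median -1.30). The lower REST values came from slide 1, where cow 1 changed by -0.93 and cow 2 by -0.34. In the other 4 cows the change was between -0.05 and 0.19. The mean change was -0.19 (SE 0.14, 95% interval -0.51 to 0.13, limma adjusted p = 0.421). Its other 2 probes were above background on 3 or 4 arrays of each group, with mean changes of 0.18 and 0.13. NR1D1, the REV-ERB alpha receptor, had 2 dim probes. They were above background on 2 and 0 CONT arrays and on 4 and 1 REST arrays, with untested mean changes of 0.30 ± 0.66 and -0.23 ± 1.07 (SD, n = 6). On slide 3 no probe of CRY2 or NR1D1 was well above background.

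DBP, the output factor, had 2 tested probes that disagreed in sign. The probe of highest signal (A_73_112730, transcript NM_001037445) ranged from 2.41 to 2.63 in CONT (median 2.51) and from 2.05 to 2.70 in REST (median 2.28). It was lower in 5 of 6 cows, with cow 1 at 0.06. The mean change was -0.24 (SE 0.09, 95% interval -0.44 to -0.04, limma adjusted p = 0.116; unadjusted p = 0.0217), just outside the threshold. The second probe (A_73_P040556) gave 0.21 (SE 0.18, 5 of 6 cows higher, limma adjusted p = 0.482). Both probes carry the same transcript identifier, and no direction can be given for the gene.

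**Figure D2:**
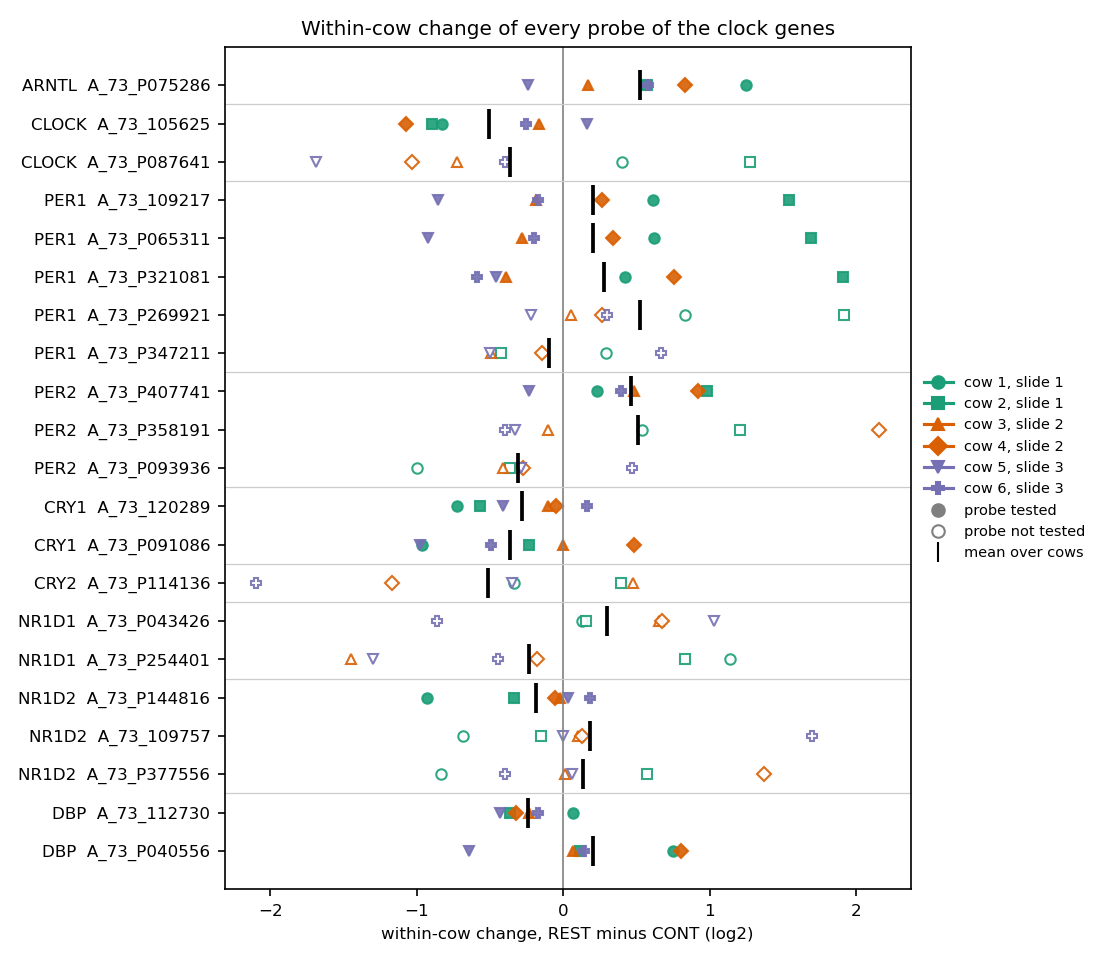
Within-cow change (REST minus CONT, log2, horizontal axis) of each of the 21 probes of the clock genes, 1 row per probe, with 1 symbol per cow and a vertical tick at the mean. Filled symbols are tested probes and open symbols are dim, untested ones. Tested probes of PER1 and CRY1 agree in sign within the gene, those of DBP do not, and the dim probes scatter widely.

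The cows differed from each other in the changes of ARNTL, PER1, PER2 and CLOCK. In cows 1, 2 and 4, ARNTL, PER1 and PER2 were all higher in REST and CLOCK was lower. In cow 5 all 4 genes went the other way, with ARNTL at -0.24, PER1 at -0.86, PER2 at -0.23 and CLOCK at 0.16. Cows 3 and 6 had higher ARNTL and PER2 and lower CLOCK, with PER1 slightly lower (-0.19 and -0.18). CRY1 did not reverse in cow 5, with -0.41 there and -0.73 and -0.57 in cows 1 and 2. NR1D2 changed by 0.03 in cow 5 and by -0.93 and -0.34 in cows 1 and 2. This grouping of cows was not tested. The tested DBP probes differed here. The brighter one was lower in cows 2, 4 and 5 (-0.36, -0.32 and -0.43) and 0.06 in cow 1, whereas the dimmer one was 0.75, 0.12 and 0.80 in cows 1, 2 and 4 and -0.64 in cow 5.

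Because each slide held both periods of its cows, changes could also be read within slides. ARNTL changed on average by 0.91 on slide 1, 0.50 on slide 2 and 0.17 on slide 3. For CLOCK the same means were -0.86, -0.62 and -0.04. For PER2 they were 0.61, 0.70 and 0.08. The mean changes of the 3 called genes therefore had the same sign on each slide and were smallest on slide 3. That slide had the lowest signal and also held cow 5. Its 2 cows went opposite ways for each gene (cows 5 and 6: ARNTL -0.24 and 0.58, CLOCK 0.16 and -0.25, PER2 -0.23 and 0.39). The slide means regroup the same within-cow changes as the fit. With 2 cows per slide these means were not tested, and slide and cow cannot be told apart. PER1 and NR1D2 changed sign between slides, PER1 from 1.08 on slide 1 to -0.52 on slide 3 and NR1D2 from -0.63 to 0.11.

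Members were compared for changes that went together from cow to cow. Of 21 pairs, 3 had an exact permutation p below 0.05 for Pearson's r over the 6 cows, and none (0) passed adjustment over the pairs (adjusted p = 0.253 for each of the 3). For ARNTL and CLOCK, r was -0.82 (exact permutation p = 0.0361) and rho was -0.71 (exact permutation p = 0.136). Without the 2 cows farthest from the median of ARNTL, r was -0.79. For CLOCK and PER1, r was -0.81 (exact permutation p = 0.0347) and rho was -0.83 (exact permutation p = 0.0583), and r was -0.92 without 2 cows. For CRY1 and NR1D2, r was 0.84 (exact permutation p = 0.0139) and rho was 0.77 (exact permutation p = 0.103), and r was 0.62 without 2 cows. Larger falls of CLOCK thus tended to lie in cows with larger increases of ARNTL and PER1, a relation that did not pass adjustment. With the mean of a gene's tested probes, ARNTL and DBP had r = 0.95 (exact permutation p = 0.00972, adjusted p = 0.204) and rho = 0.94 (exact permutation p = 0.0167, adjusted p = 0.35), and r was 0.73 without 2 cows. With the brighter DBP probe r was 0.74 (exact permutation p = 0.0986), and -0.39 without 2 cows, so it rested on those cows. CRY1 and NR1D2, with the mean of tested probes, had r = 0.61 (exact permutation p = 0.199) and rho = 0.31, and r was 0.20 without 2 cows.

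Other genes whose signal ran parallel to the called members over the 12 arrays were named by the highest Pearson r, as a description without a test. For CLOCK they were NDUFA1 (a subunit of respiratory complex I, r = 0.934), OGDH (an enzyme of the citric acid cycle, r = 0.933) and ATOX1 (a copper chaperone, r = 0.931). For ARNTL they were INPP4A (a phosphoinositide phosphatase, r = 0.921), SPTLC1 (a subunit of serine palmitoyltransferase, r = 0.916) and SCGB2A2 (a secretoglobin, r = 0.899). The 12 points share cows and slides.

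Around the members, 6 lists held 51 further genes of the clock network. Of these, 37 had a tested probe and 3 (8.11%) were called with their probe of highest signal, where 16.2% of all tested genes were. The median change of the 37 genes was -0.03 and their median absolute change 0.12, near the values over all tested genes. Called were RORA and HLF, both lower in REST, and KLF10, higher. All 3 changed in the same direction in 6 of 6 cows, as 17.5% of all tested probes did.

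RORA, the receptor that activates the ARNTL promoter, ranged from 0.53 to 1.12 in CONT (median 0.96) and from -0.03 to 0.91 in REST (median 0.15). It fell by 0.57 (SE 0.13, limma adjusted p = 0.0367), in single cows by 0.18 to 1.15. NFIL3, a repressor that opposes DBP at shared sites, changed by 0.19 (SE 0.08, limma adjusted p = 0.180), and RORB was not tested.

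HLF, an output factor of the same PAR bZIP family as DBP, ranged from -2.53 to -1.57 in CONT (median -1.95) and from -3.46 to -2.24 in REST (median -2.55). It fell by 0.62 (SE 0.13, limma adjusted p = 0.0265), with 1 CONT array not well above background, and by 0.36 under normexp (adjusted p = 0.0316). TEF, the third factor of that family, was not tested, and CIART had no probe. The repressors BHLHE40 and BHLHE41 changed by 0.51 (SE 0.20, 5 of 6 cows higher, limma adjusted p = 0.137) and -0.03 (SE 0.08, limma adjusted p = 0.804).

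KLF10, a zinc finger factor controlled by the clock in liver, ranged from -0.61 to 0.47 in CONT (median 0.28) and from 0.53 to 1.19 in REST (median 0.96). Every REST sample lay above every CONT sample, where 2.25% of all tested probes had groups that did not overlap. KLF10 rose by 0.81 (SE 0.14, limma adjusted p = 0.0171), and also passed without the block (adjusted p = 0.0496), unlike RORA (0.106) and HLF (0.162). The other 8 tested outputs, such as WEE1, NOCT and NAMPT, did not pass with that probe. A dimmer WEE1 probe did (0.52, SE 0.13, limma adjusted p = 0.0498), named here after its value was seen.

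Kinases, phosphatases and ubiquitin ligases that set the lifetime of PER and CRY proteins did not pass in limma. Of 10 tested, 0 were called and 0 had an unadjusted p below 0.05, where 16.2% of all tested genes were called and 27.6% of all tested probes had such a p. BTRC, a ubiquitin ligase subunit, changed by -0.23 (SE 0.10, limma adjusted p = 0.183), and CSNK1D, a kinase of PER proteins, by 0.10 (SE 0.09, limma adjusted p = 0.50). Of 12 tested partners of the clock complexes, 0 were called in limma with the probe of highest signal and 1 (KDM5A) had an unadjusted p below 0.05. Their changes ran from -0.20 to 0.18. Dimmer probes of RBM4 (-0.28, limma adjusted p = 0.0626) and SIRT1 (0.59, limma adjusted p = 0.0695) passed, also named after their values were seen.

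**Figure D3:**
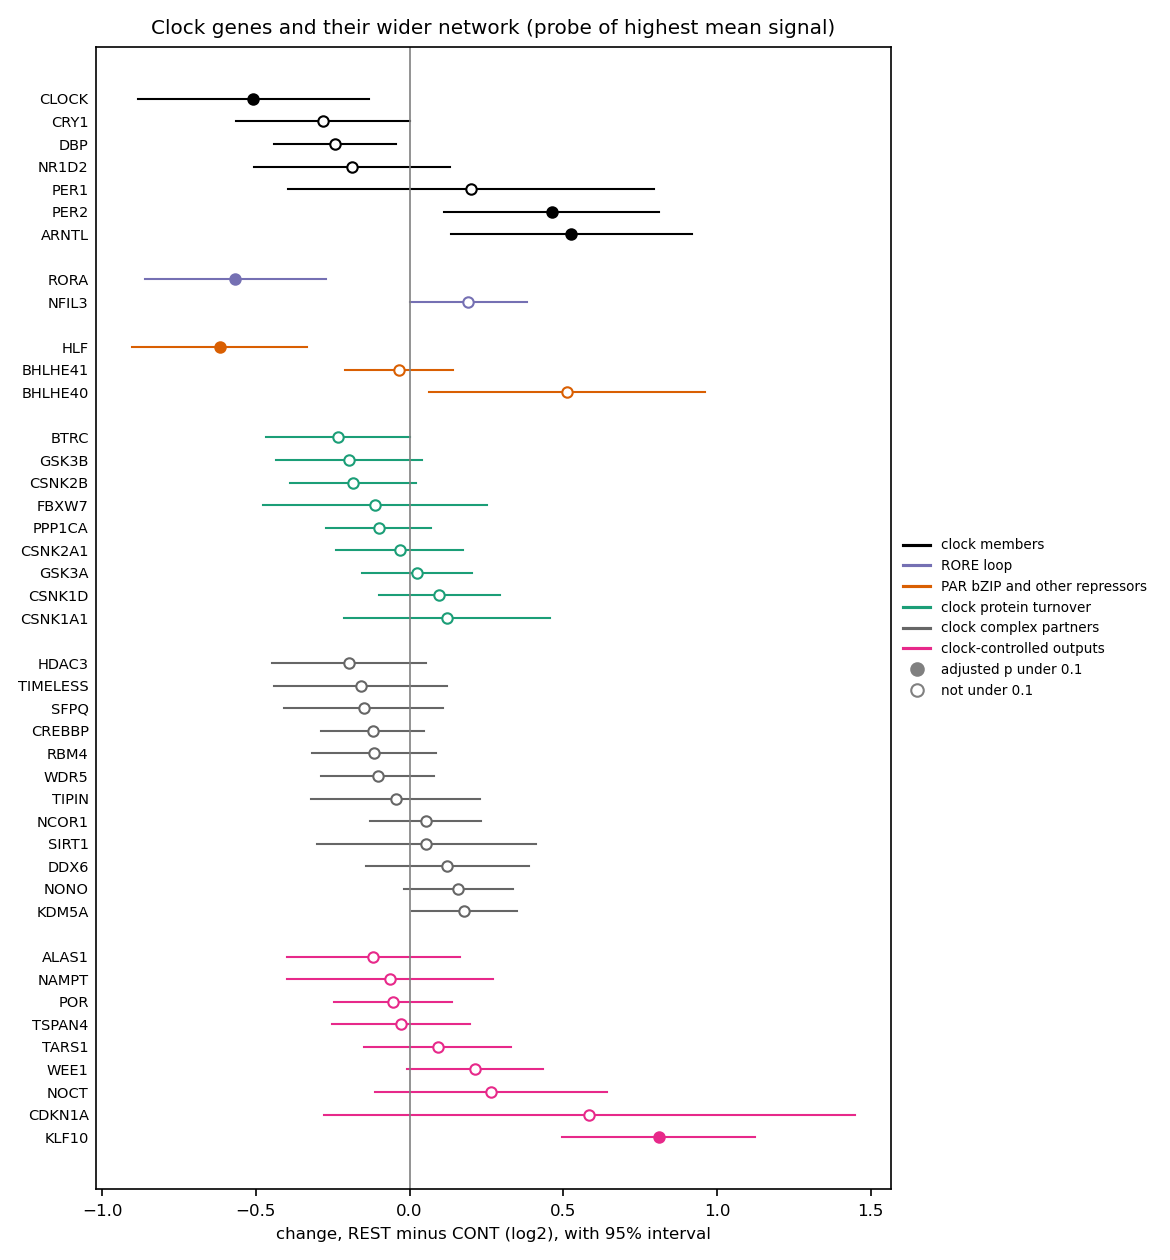
Change in REST relative to CONT (log2, horizontal axis) with its 95% interval for the 7 tested clock genes and tested genes of the wider network, grouped by list, with filled symbols for an adjusted p under 0.1. RORA, HLF and KLF10 are the 3 filled symbols outside the clock genes, and the plotted turnover and partner genes lie between -0.23 and 0.18.

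Since PER1 is induced by glucocorticoids, other genes with that property were counted. Of 9 tested, 7 were higher in REST, and the median change was 0.35, against -0.01 over all tested genes. Of the 9, 8 were not called and 1 was, where 16.2% of all tested genes were. That was MT2A, a metal-binding protein, which rose by 0.88 (SE 0.28, 6 of 6 cows, limma adjusted p = 0.0881). Like ARNTL, it entered the test through the REST arrays only, where it was higher (5 of 6 CONT arrays well above background). Its adjusted p without the block was 0.449, and under normexp its change was 0.40 (adjusted p = 0.102). DUSP1 changed by 0.68 (limma adjusted p = 0.138) and FKBP5 by -0.03 (limma adjusted p = 0.955). Hormones are not in the data used here, and PER1 is itself one of the 9.

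Markers of the cells in a biopsy were read beside these results, with the probe of highest signal, by which 16.2% of all tested genes were called. The luminal epithelial list, which defines the labelled tissue, was bright, with a summed signal (multiples of the 75th percentile) of 2054 to 2761 in CONT and 1705 to 2262 in REST. Of the 9 tested luminal genes, 3 were called higher (KRT8 by 0.72, KRT7 by 0.53, KRT18 by 0.52) and CSN3, a casein, lower by 0.28. By direction alone, 5 were higher and 4 lower. Of the 3 tested KRT8 probes, 2 were higher. Of 8 tested myoepithelial genes, KRT17 was higher and ACTA2 and CNN1 were lower (CNN1 by 0.53). Of 7 endothelial genes, VWF was higher by 0.54 in 6 of 6 cows, and the summed signal was 12.7 to 17.5 in CONT and 14.8 to 17.8 in REST.

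Of 9 leukocyte genes, CD3E and CORO1A were higher (0.35 and 0.37), with sums of 14.1 to 16.8 in CONT and 14.7 to 22.7 in REST. With the probe of highest signal none of 6 fibroblast genes was called in limma (0, with 2 at an unadjusted p below 0.05), while 1 of 3 tested COL1A1 probes passed, and their sums were 34.2 to 63.9 and 26.4 to 73.5. The adipocyte list was read through CIDEA alone, which also occurs in lactating epithelium and was lower by 0.27 (sums 47.1 to 262 and 37.8 to 197), while PLIN1, LEP and CIDEC were too dim to test. Of the 2 tested muscle genes CKM was lower by 0.36 and ACTA1 changed by 0.02 (limma adjusted p = 0.899), and MYH1, MYH2 and TNNT3 were not tested (sums 2.05 to 3.73 and 1.72 to 2.94). Of the erythrocyte genes only HBA was tested, at -0.33 (limma adjusted p = 0.108), and its sums were 13.6 to 19.9 and 10.3 to 20.3. The part of these shifts in the changes of ARNTL, CLOCK and PER2 was not tested.

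**Figure D4:**
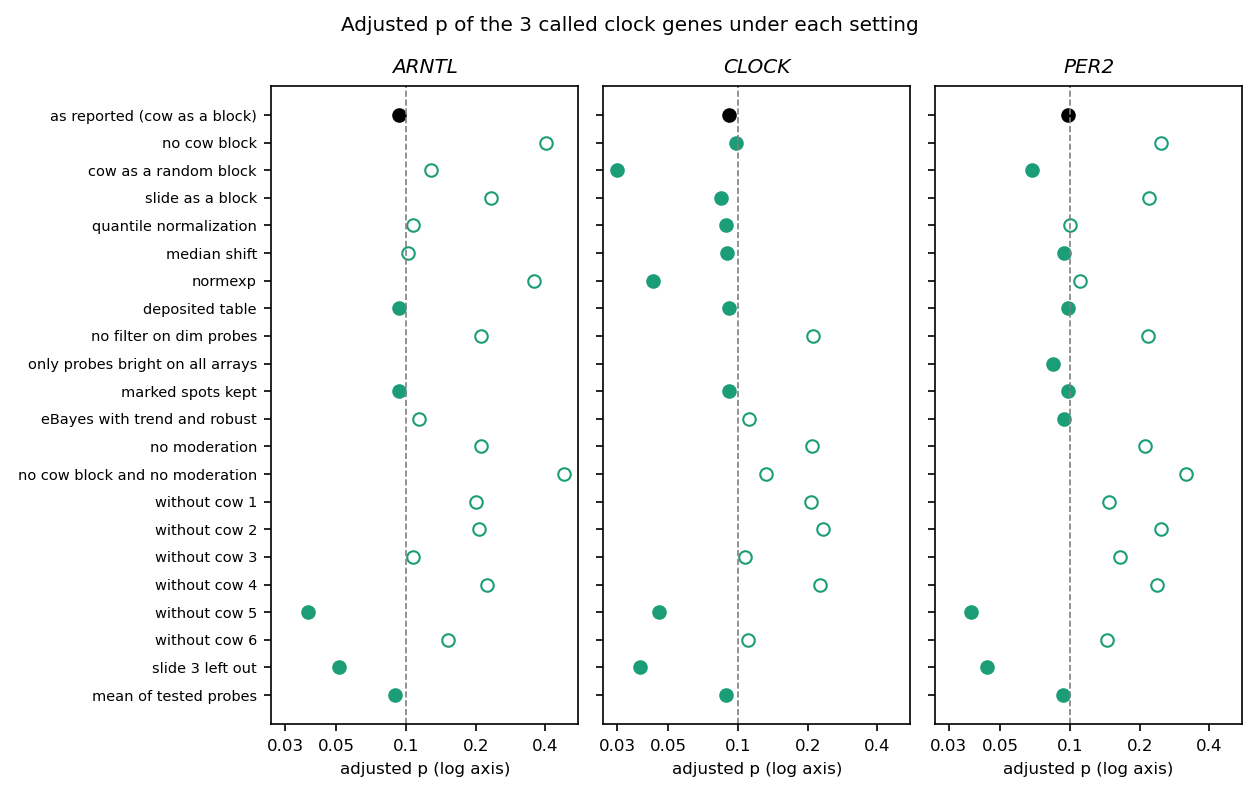
Adjusted p (log axis) of ARNTL, CLOCK and PER2 as reported and under each other setting; the dashed line is the threshold of 0.1 and filled symbols lie below it. Of 20, 20 and 21 adjusted p-values under other settings, 5, 11 and 9 were below 0.1, and a missing symbol means that the probe was not tested there.

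The 3 calls depended on which cows and settings were used. Leaving out cow 5, or slide 3, kept ARNTL, CLOCK and PER2 below 0.1, whereas leaving out any other cow (1, 2, 3, 4 or 6) left 0 members called in limma, with 2 to 5 members at an unadjusted p below 0.05. With all 6 cows that number was 4 of 7, against 27.6% of all tested probes. Across those fits with 5 cows the changes kept their direction, from 0.38 to 0.68 for ARNTL, -0.64 to -0.40 for CLOCK and 0.36 to 0.60 for PER2.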

How the data were processed

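Mammary RNA (50 ng per sample) was labelled with Cy3 and hybridised on bovine one-colour arrays. Per the file headers and the submitters' notes, the authors read the intensity of each spot from the scans using Agilent Feature Extraction 11. The deposited processed intensity is background-subtracted and detrended but not scaled between arrays, and the deposited series table repeats it in all 45220 cells of each array. The deposited intensity was log2-transformed here, spots marked as outliers (1 to 13 per array) were left out, 50 probes with repeat spots were reduced to their mean, and each array was shifted by the 75th percentile of its non-control spots. No spot was saturated (0). RefSeq identifiers were matched to a gene table (27131 of 43653 probes, 62.2%). The files refer to an older bovine assembly than that table, so no positions are given.

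The change in REST was fitted in limma 3.58.1 in R 4.3.3 (lmFit, eBayes), with the cow as a fixed block. The animal identifiers of the labels give the pairing, and same-cow samples deviated together from their group means (r from 0.356 to 0.574, against -0.33 to 0.13 between cows). P-values were adjusted over the 19403 tested probes, with a threshold of 0.1 as in the methods of the study, and tests are two-sided. The groups came from the labels, and nothing beyond the separate cows is known of the replicates. A member was called if any tested probe passed. Values given for other genes are of the tested probe with the highest mean signal. Sign-flip and permutation tests are exact (Python 3.11.15, scipy 1.17.1), plots were drawn with matplotlib 3.10.9, and the fit was tested on simulated data. The number of arrays limits the precision, and no counts underlie the signals.

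The members and lists were chosen with earlier results of these data known. Named genes were all members, the called genes of the other lists and, for the 2 called members of smallest p, the 3 genes of most similar signal. Genes of the lists that were not called and are given with values, and probes other than that of highest signal, were chosen outside this rule after their values were seen. The values of 2 genes of the wider lists are not reported here, although the counts and medians include them. The marker lists covered luminal epithelial, myoepithelial, adipocyte, skeletal muscle, leukocyte, erythrocyte, fibroblast and endothelial cells. Alternatives covered the block (none, random, slide), normalization (quantile, median, normexp with an offset of 50, deposited table), the filter on dim probes, marked spots, moderation (none, or trend and robust), the probe used per gene, and each cow left out; slide 3 was left out as an alternative chosen after seeing the data. Normexp used median spot intensities, since mean intensities were not among the columns used here.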

Additional observations from a re-analysis of the deposited data

Results flagged for a closer look

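A REST sample of DBP stood apart from its group. On the dimmer tested DBP probe (A_73_P040556), cow 6 had the highest REST signal, -1.64, against -2.06 for the next cow, a gap of 0.715 of the range of the group, where Dixon's critical value for 6 samples is 0.625. The change of cow 6 on that probe entered the mean of 0.21 given above, which did not pass the test. Of 30 groups of values looked at, 1 was above the critical value, and chance flags about 1 in 20 groups.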

How the results depend on the processing

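Without the cow block (no pairing by animal), 1 member (CLOCK), 836 probes (4.31%) and 1 wider clock gene (KLF10) were called. With a plain t-test of the 2 groups (no block, no moderation, Benjamini-Hochberg, threshold 0.1), 0 members, 722 probes and 1 wider gene were called. In that fit 3 members had an unadjusted p below 0.05. The methods of the study call their t-tests moderated and do not say whether they were paired, so this fit may differ from theirs. With the slide as a block 1 member and 1898 probes passed, and without moderation 0 members (1 unadjusted) and 1852 probes. Quantile normalization, normexp and the use only of probes above background on all arrays left 1 member each (CLOCK, CLOCK and PER2), and ARNTL and CLOCK were not tested in the last. Normexp called 7 wider genes. With no filter on dim probes, 0 members (4 unadjusted), 388 probes and 0 wider genes (4 unadjusted) passed in limma. With each cow left out in turn, 0 to 3 members, 1045 to 3291 probes and 3 to 4 wider genes were called. PER1 changed sign without cow 2 (-0.068) and ranged up to 0.41 with another cow left out. The cause of these differences was not tested, except that fits without a cow use fewer samples. With cow as a random block 4 members passed, CRY1 and DBP among them and ARNTL not. The deposited table, marked spots kept, the mean of tested probes and slide 3 left out called ARNTL, CLOCK and PER2. For these genes, all of those settings but the last give the same change as the main fit. The median shift lost ARNTL (adjusted p = 0.101), and trend and robust moderation called PER2 and DBP and lost ARNTL (0.113) and CLOCK (0.112). Over all alternatives adjusted p-values were 0.0375 to 0.482 for ARNTL, 0.0301 to 0.234 for CLOCK and 0.0375 to 0.318 for PER2, without a change of sign. KLF10 passed under 20 of 21 alternatives, RORA under 17 of 21, HLF under 16 of 20 and MT2A under 7 of 20. These counts include settings that give the same change as the main fit. The difference between PER1 and PER2 was -0.23 with mean probes, -0.02 with normexp and -0.43 to -0.18 with a cow left out. With the mean of tested probes, 0 of 21 correlations between members passed adjustment. CRY2 and NR1D1 were too near background for a test.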
